A study of Mus musculus with 6 samples.

Results

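The genes of cholesterol synthesis and of its feedback control by SREBP2 were examined in the livers of mice that received esculetin or vehicle. The group was defined by name as 27 genes and holds the enzymes of the pathway from acetoacetyl-CoA to cholesterol, the proteins that control SREBP2, and 3 genes of sterol transport and low-density lipoprotein (LDL) uptake. All 27 were found among the 55357 genes of the count table and all 27 had enough counts to be tested. The lowest count of any of them was 71. The list does not hold every gene of the pathway, and steps whose gene is not on it were not analysed here. The mice were wild-type C57BL6/J males of 8 to 9 weeks. Vehicle (2.5% Tween-80) or esculetin, a plant coumarin, was given daily by oral gavage for 7 days. All mice of both groups ate a control diet with 10% of kcal from fat for 4 days and then, for 3 days, a high-fat diet with 60% of kcal from fat, so that no library shows the level before the high-fat diet. There are 3 libraries in each group, and RNA of 2 mice went into each library. For the esculetin libraries the sample names, the treatment protocol and the names of the count columns state 180 mg/kg/d while the treatment field states 90 mg/kg/d, so the group is named here without a dose. The comparison asks how the hepatic transcripts of a pathway that makes cholesterol stood in mice whose postprandial cholesterol handling was under study.

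The liver makes cholesterol from acetyl-CoA in a long series of steps in the cytosol, the endoplasmic reticulum and the peroxisome. The mevalonate steps give isoprenoid units, squalene is then formed and closed to lanosterol, and lanosterol is trimmed and rearranged to cholesterol. SREBP2 is a transcription factor held in the membrane of the endoplasmic reticulum. When membrane cholesterol is low, its escort SCAP carries it to the Golgi apparatus, where proteases free the active part, which switches on most genes of the pathway. When cholesterol is plentiful, INSIG proteins hold SCAP and SREBP2 back, so transcripts of the pathway tend to move together. Its genes are also known to follow feeding and the time of day.

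The total counts lay between 27957713 and 34920922 per library, with the esculetin libraries the deeper ones. Levels are given as CPM, read counts divided by library size after TMM scaling, with factors between 0.979 and 1.02. At these depths 3 counts correspond to 0.0865 to 0.109 CPM. No library was a copy of another, since replicates differed far beyond counting noise (chi-square per gene 24.2 to 60.8). The hepatocyte gene Alb was at 54300 to 61200 CPM in every library. Of the adipocyte genes, Adipoq and Plin1 were at 0.144 CPM or less and Cfd at 1.12 CPM or less, and the pancreatic genes Cpa1 and Prss2 had 0 counts in every library, whereas Cela1 of the same marker list was at 15.8 to 25.7 CPM. In tissue RNA, fewer cells of a type and less RNA per cell cannot be told apart.

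With esculetin, 15 enzymes of cholesterol synthesis were lower at an unadjusted p-value under 0.05, where 5.32% of all genes were, and 0 of the 4 genes that control SREBP2 were. The difference between enzymes and control genes was not tested. Of the 27 genes, 22 were lower and 5 higher with esculetin by the sign of the log2 fold change alone, where 51.5% and 48.5% of all genes were. Their median log2 fold change was -0.37, against -0.0080 over all 14433 genes tested. These p-values are from edgeR's quasi-likelihood test. Only Mylip was higher at an unadjusted p-value under 0.05, where 6.53% of all genes tested were. Genes whose unadjusted p-value was below 0.05 and whose fold change exceeded 1.5 were called. By that rule 5 genes were lower, Hmgcs1, Mvd, Idi1, Fdps and Sqle, against a background of 1.76%, and 0 were higher, against 1.37%, with 3.13% of all genes called in either direction. In the main edgeR fit, no gene of the list had a p-value under 0.05 after Benjamini-Hochberg adjustment over all genes tested. Of all genes, 0.0416% did. The smallest of the list was that of Sqle (adjusted p = 0.136, edgeR). With DESeq2, 3 of the 27 genes had an adjusted p-value under 0.05, namely Hmgcs1 (0.0037), Idi1 (0.00726) and Sqle (0.00133), where 193 of all 14433 genes did. Without the filter on low counts 11 did, where 477 of 24638 genes did.

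**Figure D1:**
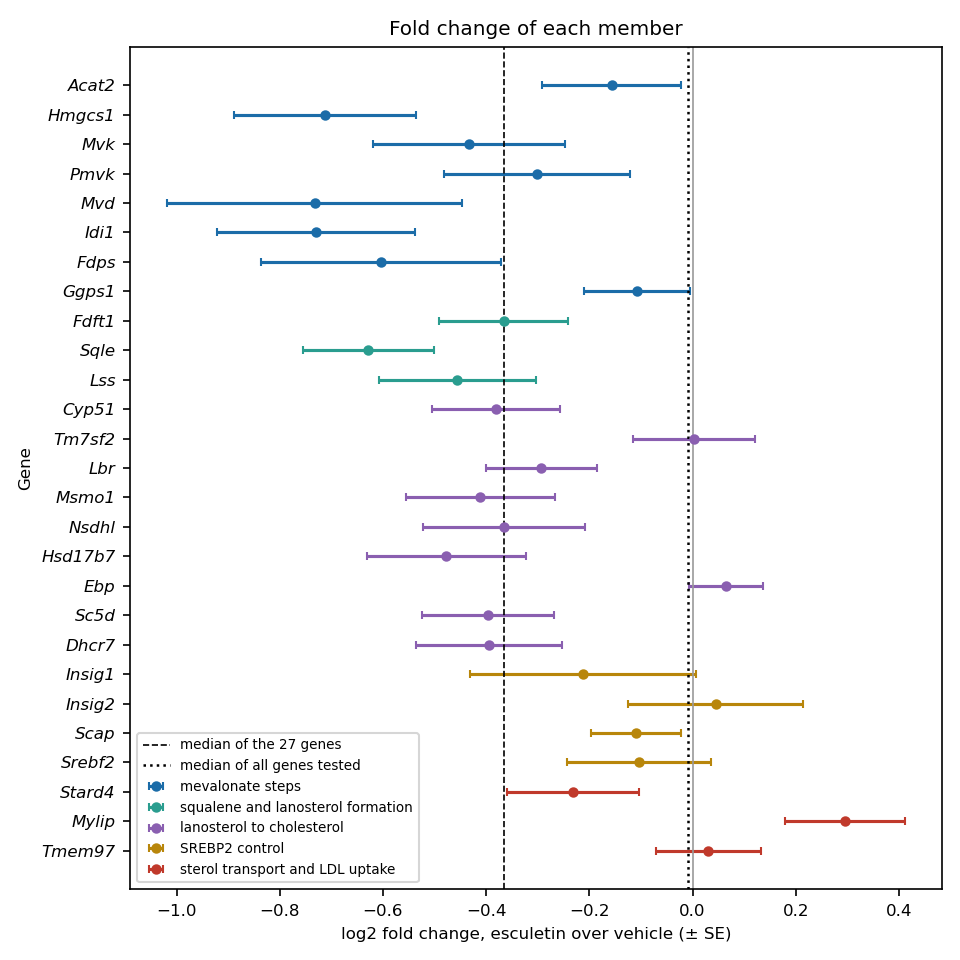
Log2 fold change of each of the 27 genes (esculetin over vehicle, 3 libraries each, edgeR), with bars of 1 standard error, in pathway order and coloured by step. The enzymes from Hmgcs1 to Dhcr7 lie mostly around the dashed median of -0.37, while Tm7sf2, Ebp, Insig2 and Tmem97 lie near 0 and Mylip lies at 0.30.

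The count of lower genes depended on single libraries. It was 5 without vehicle replicate 1, 8 without vehicle replicate 2 and 9 without esculetin replicate 3, and it was 19 without vehicle replicate 3. Of all genes tested, 4.36%, 3.61%, 6.01% and 5.21% were lower at that p-value in these fits. The genes called by both thresholds numbered 2, 3 and 1 without the first 3 of these libraries, and 7 without vehicle replicate 3, where 1.68%, 1.49%, 2.49% and 2.13% of all genes were called lower. Hmgcs1, Idi1, Sqle and Sc5d kept an unadjusted p-value under 0.05 whichever library was left out. Of the 6 fits with 1 library left out, Hsd17b7 kept it in 5, Fdft1, Lss, Cyp51, Lbr and Msmo1 in 4, Mvd and Dhcr7 in 3, and Mvk, Fdps and Nsdhl in 2. In each of the 15 genes, vehicle replicates 1 and 2 were above every esculetin library. Vehicle replicate 3 was the lowest vehicle library in 14 of them, and in 9 it was not above the highest esculetin library.

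**Figure D2:**
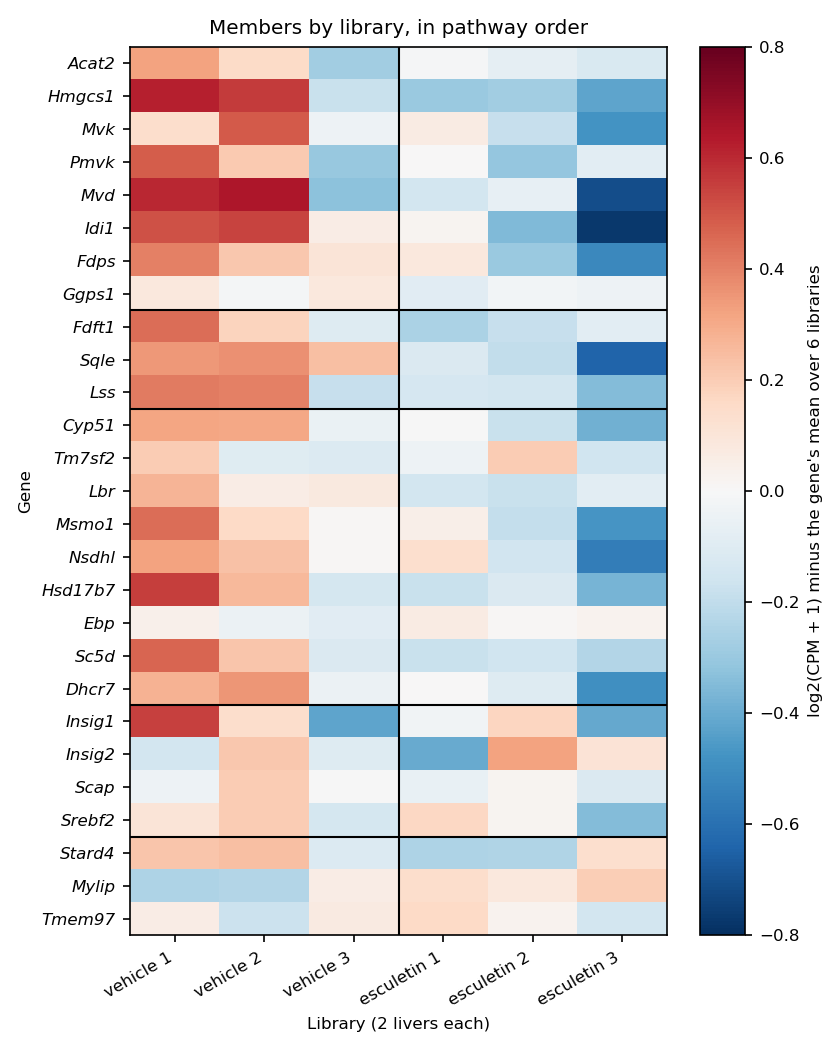
Level of each gene in each library as log2(CPM + 1) minus the mean of that gene over the 6 libraries, with genes in pathway order and horizontal lines between the steps. Vehicle replicates 1 and 2 are above the mean for most enzymes, vehicle replicate 3 is near it, and esculetin replicate 3 is below it for most.

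The mevalonate steps held 4 of the 5 called genes, where 1.76% of all genes were called lower. All 8 mevalonate genes had a lower mean with esculetin, where 51.5% of all genes were lower by sign. Their log2 fold changes ranged between -0.73 and -0.11 around a median of -0.52. Of the 8, 5 had an unadjusted p-value under 0.05, where 5.32% of all genes were lower at it. Hmgcs1 encodes the cytosolic HMG-CoA synthase, which joins acetyl-CoA to acetoacetyl-CoA. It lies on chromosome 13 of GRCm39 from 120151915 to 120170470 on the plus strand. Its level was 258, 247 and 148 CPM in the vehicle libraries and 136, 138 and 125 CPM in the esculetin libraries. Every esculetin library was below every vehicle library, and the third vehicle library was close to the esculetin libraries. The means were 218 ± 60.9 and 133 ± 6.95 CPM (SD, n = 3 libraries), with a log2 fold change of -0.71 (SE 0.18, adjusted p = 0.196, edgeR).

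Idi1 encodes isopentenyl-diphosphate isomerase, which makes the starter unit of isoprenoid chains, and lies on chromosome 13 from 8935537 to 8942487. It had 103, 106 and 75.3 CPM with vehicle and 73.4, 56.3 and 41.9 CPM with esculetin. The groups did not overlap, although vehicle replicate 3 was close to esculetin replicate 1. The log2 fold change was -0.73 (SE 0.19, adjusted p = 0.205, edgeR). Mvd, the decarboxylase that gives isopentenyl diphosphate, is on chromosome 8 from 123160336 to 123170324. It had 12.4, 12.8 and 6.05 CPM with vehicle and 7, 7.47 and 4.42 CPM with esculetin. Here the groups overlapped, since vehicle replicate 3 lay among the esculetin libraries. Its log2 fold change of -0.73 was the largest decrease among the 27 genes in the main fit, barely ahead of Idi1, and had a large error (SE 0.29, adjusted p = 0.361, edgeR). Idi1 had the larger decrease with limma-voom (-0.75 against -0.71) and with the replicate block (-0.75 against -0.70). Mvd lost its unadjusted p-value under 0.05 without vehicle replicate 1, vehicle replicate 2 or esculetin replicate 3, with log2 fold changes of -0.59, -0.55 and -0.53.

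Fdps, whose product condenses isoprenoid units to farnesyl diphosphate, was at only 4.29 ± 0.564 CPM with vehicle and 2.82 ± 0.824 with esculetin (SD, n = 3), with 71 to 144 counts per library. The log2 fold change was -0.60 (SE 0.23, adjusted p = 0.356, edgeR), and without esculetin replicate 3 it was -0.43. Its unadjusted p-value was over 0.05 without that library and without vehicle replicate 1, vehicle replicate 2 or esculetin replicate 2. The main transcript of Fdps has 6 near-identical copies elsewhere in GRCm39 that cover up to 89.4% of it, and that of Idi1 has 2 that cover up to 95.7%. How reads that fit several places were counted is not stated, so the levels of these 2 genes are uncertain. The same limit holds for Insig1, Tmem97 and Fdft1, each with 1 copy that covers 73.5%, 70.8% and 47% of the transcript. Idi1-ps1, an annotated copy of Idi1, had 2.08, 2.28 and 0.836 CPM with esculetin and 3.22 to 3.57 with vehicle.

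Of the other mevalonate genes, Mvk alone had an unadjusted p-value under 0.05. Mvk, mevalonate kinase, had 12.4, 16.1 and 10.8 CPM with vehicle and 11.7, 9.71 and 7.73 CPM with esculetin, so the groups overlapped (log2 fold change -0.43, SE 0.19, adjusted p = 0.398, edgeR). Leaving out vehicle replicate 2 moved its log2 fold change to -0.25. Pmvk, the next kinase, had a log2 fold change of -0.30 (SE 0.18, adjusted p = 0.554, edgeR), and Acat2, the cytosolic thiolase of the first step, had -0.16 (SE 0.13, adjusted p = 0.693). Both rested on single libraries, with log2 fold changes of -0.11 and -0.023 without vehicle replicate 1, and of -0.49 and -0.31 without vehicle replicate 3, where both had an unadjusted p-value under 0.05. Acat3, a close relative that lies beside Acat2, was at 106 to 126 CPM with overlapping groups (log2 fold change 0.039). Ggps1 branches off to geranylgeranyl diphosphate, the lipid attached to small GTPases, and had 11.9 to 12.9 CPM with vehicle and 11.3 to 11.9 with esculetin. That difference was small (log2 fold change -0.11, SE 0.10, adjusted p = 0.731, edgeR).

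**Figure D3:**
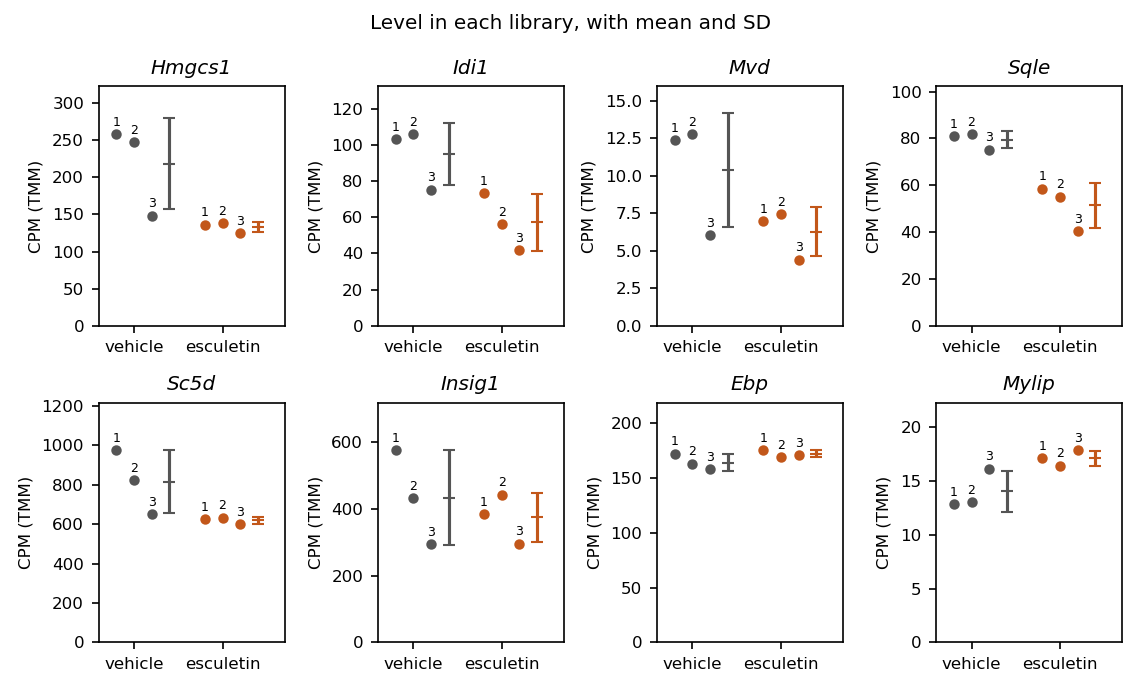
CPM of 8 genes in each library (points numbered by replicate, y axes from 0), with the mean and SD of each group of 3 libraries beside them. Sqle, Hmgcs1, Idi1 and Sc5d separate the groups, Mvd and Insig1 overlap, Ebp stays between 158 and 175 CPM, and Mylip is higher with esculetin.

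All 3 genes that form squalene and lanosterol were lower with an unadjusted p-value under 0.05, where 5.32% of all genes were. Sqle encodes squalene epoxidase, a rate-limiting enzyme that adds the first oxygen to squalene, and lies on chromosome 15 of GRCm39 from 59186869 to 59203043. It had 81.1, 81.9 and 75.2 CPM with vehicle and 58.6, 55.1 and 40.3 CPM with esculetin. The groups did not overlap, and vehicle replicate 3 was close to the other vehicle libraries. The means were 79.4 ± 3.64 and 51.4 ± 9.72 CPM (SD, n = 3), with a log2 fold change of -0.63 (SE 0.13, adjusted p = 0.136, edgeR). Its log2 fold change lay between -0.73 and -0.48 over all alternatives. Fdft1, squalene synthase, had 155, 129 and 106 CPM with vehicle and 95.5, 100 and 107 CPM with esculetin. Its groups overlapped by 1 library on each side (log2 fold change -0.37, SE 0.13, adjusted p = 0.301, edgeR). Without vehicle replicate 1 the log2 fold change of Fdft1 was -0.22. Lss, which closes the ring to lanosterol, had 56.8, 56.1 and 37 CPM with vehicle and 38.3, 38 and 33 CPM with esculetin, so that vehicle replicate 3 again lay among the esculetin libraries (log2 fold change -0.46, SE 0.15, adjusted p = 0.291, edgeR). Fdft1 shares 24.8% of its annotated exon bases with Ctsb on the other strand. Ctsb had 489 to 616 CPM and a log2 fold change of 0.14. Single genes on the other strand also overlapped 21.1% of the exon bases of Cyp51, 20.5% of Mvd and 18.6% of Tmem97.

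From lanosterol to cholesterol, 7 of 9 genes were lower with an unadjusted p-value under 0.05, where 5.32% of all genes were. None reached a fold change of 1.5, where 1.76% of all genes were called lower. The log2 fold changes of the 7 lay between -0.48 for Hsd17b7 and -0.29 for Lbr. Without vehicle replicate 1, only Cyp51 and Sc5d of the 7 kept that p-value. Sc5d, which introduces the C5 double bond, was the most abundant of these enzymes per kilobase of its main transcript, at 169 CPM per kb with vehicle and 128 with esculetin. Its libraries had 974, 824 and 651 CPM with vehicle and 625, 633 and 601 CPM with esculetin. All esculetin libraries were lower and close to each other, while the vehicle libraries were spread widely (log2 fold change -0.40, SE 0.13, adjusted p = 0.276, edgeR). Hsd17b7, the 3-ketosteroid reductase of the demethylation complex, had 87.8, 71.7 and 53.9 CPM with vehicle and 52.5, 54.9 and 45.9 CPM with esculetin (log2 fold change -0.48, adjusted p = 0.276, edgeR). Without vehicle replicate 1 the log2 fold changes of Sc5d and Hsd17b7 were -0.25 and -0.30.

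Cyp51, the cytochrome P450 that removes the 14-alpha methyl group of lanosterol, had 201, 201 and 156 CPM with vehicle and 161, 143 and 124 CPM with esculetin. Msmo1 oxidizes the methyl groups at C4, and had 250, 205 and 185 CPM with vehicle and 189, 160 and 132 CPM with esculetin. In both genes the third vehicle library lay below the first esculetin library (log2 fold changes -0.38 and -0.41, adjusted p = 0.282 and adjusted p = 0.308, edgeR). Dhcr7, the last reductase of one route to cholesterol, had 72.2, 75.9 and 57.4 CPM with vehicle and 59.4, 55.1 and 41.9 CPM with esculetin (log2 fold change -0.39, adjusted p = 0.32, edgeR). Without esculetin replicate 3 the log2 fold change of Dhcr7 was -0.26. Nsdhl, the decarboxylating partner of Msmo1, had a log2 fold change of -0.37 (adjusted p = 0.398, edgeR), which was -0.20 without esculetin replicate 3.

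Ebp and Tm7sf2 stood apart from these enzymes. Ebp, the sterol isomerase that moves the C8 double bond, had 172, 163 and 158 CPM with vehicle and 175, 169 and 171 CPM with esculetin. Its log2 fold change was 0.065 with a standard error of 0.072, smaller than that of any other gene of the list (adjusted p = 0.771, edgeR). Tm7sf2, one of 2 genes for the sterol C14 reductase, had 77.1, 62.6 and 61.9 CPM with vehicle and 64.9, 77.2 and 59.7 CPM with esculetin. Its log2 fold change of 0.0022 turned negative with total counts, with at least 10 counts in every library and in 3 of the fits with 1 library left out. Tm7sf2 shares 10.8% of its annotated exon bases with Vps51 on the same strand, so its level is uncertain. Vps51 had 6.05 to 8.08 CPM and a log2 fold change of 0.10. Lbr, the lamin B receptor, carries the same reductase activity in the nuclear envelope. It had 16.4, 14.1 and 14.3 CPM with vehicle and 12.1, 11.8 and 12.7 CPM with esculetin, without overlap (log2 fold change -0.29, SE 0.11, adjusted p = 0.332, edgeR). Its log2 fold change was -0.22 without vehicle replicate 1. Per kilobase, Tm7sf2 was the more abundant of the 2 reductase genes, at 45.1 CPM per kb in both groups against 2.9 and 2.36 for Lbr. The log2 ratio of Tm7sf2 to Lbr was 4.02, 3.94 and 3.91 with vehicle and 4.21, 4.50 and 4.03 with esculetin. Every esculetin library had the higher ratio, by 0.29 on the log2 scale between the means, which gives p = 0.1 in a two-sided exact permutation test, the smallest p that 3 against 3 libraries allow. The difference between the means was 0.17 without esculetin replicate 2.

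The stretches upstream of 3 genes are shown as examples, 2 called genes whose groups did not overlap and the gene that was higher. SREBP2 binds sterol regulatory elements, often beside CCAAT boxes, which bind NF-Y. The 250 bases before the main transcript start of each gene were searched on both strands for TCACNCCAC, a form of the sterol regulatory element, and for CCAAT. Bases in annotated exons of protein-coding genes are left out of the printed stretches. The sequences are from GRCm39 and run 5′ to 3′ on the strand of the gene, with matches of either motif in capitals, so that a CCAAT box on the other strand reads ATTGG. Hmgcs1 and Sqle were called lower and did not overlap between the groups, and Mylip was higher. They lie at chr13:120151732-120151914 (plus strand), chr15:59186632-59186868 (plus) and chr13:45542966-45543214 (plus).
Hmgcs1: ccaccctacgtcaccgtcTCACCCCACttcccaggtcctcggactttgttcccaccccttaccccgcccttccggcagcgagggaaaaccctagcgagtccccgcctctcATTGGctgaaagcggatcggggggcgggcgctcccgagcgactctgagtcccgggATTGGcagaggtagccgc
Sqle: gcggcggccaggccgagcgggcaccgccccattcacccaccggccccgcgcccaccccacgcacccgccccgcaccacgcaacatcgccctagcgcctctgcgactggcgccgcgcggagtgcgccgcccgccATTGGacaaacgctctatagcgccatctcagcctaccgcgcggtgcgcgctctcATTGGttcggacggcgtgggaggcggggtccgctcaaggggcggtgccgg
Mylip: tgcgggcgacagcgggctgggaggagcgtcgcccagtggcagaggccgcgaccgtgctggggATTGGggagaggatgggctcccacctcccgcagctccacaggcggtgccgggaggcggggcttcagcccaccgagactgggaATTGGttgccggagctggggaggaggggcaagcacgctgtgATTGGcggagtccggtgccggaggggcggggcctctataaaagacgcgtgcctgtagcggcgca

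CCAAT was found upstream of 19 of the 27 genes (70.4%), against 36.1% of 12577 protein-coding genes tested. It was found in 11 of the 15 genes that were lower and in 8 of the other 12. Of those 12 genes, 5 had a positive log2 fold change, so this is a split by p-value and not by direction. TCACNCCAC was found in 1 of the 27, Hmgcs1, 232 to 224 bases before the start, against 1.13% of all. The shorter CACNCCAC, which every TCACNCCAC holds, was found in 5, namely Acat2, Hmgcs1, Insig1, Sqle and Stard4, against 6.09% of all. The E-box CACGTG was found in 4 of the 27 (14.8%), against 7.69% of all. A match is a description of letters, not evidence of binding in these livers.

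The genes that control SREBP2 did not pass the test with all 6 libraries. None of the 4 had an unadjusted p-value under 0.05, where 11.9% of all genes did in either direction, so 0 of 4 was near that share. Their median log2 fold change was -0.11. Srebf2, which encodes SREBP2, had 35.5, 37.9 and 29.7 CPM with vehicle and 37, 33.4 and 25.6 CPM with esculetin (log2 fold change -0.10, SE 0.14, adjusted p = 0.817, edgeR). Scap, its escort, had 52.2 to 57.5 CPM with esculetin and 55 to 65.3 with vehicle (log2 fold change -0.11, SE 0.087, adjusted p = 0.667). Insig1 is itself a target of SREBP2 and was the most abundant control gene, at 158 CPM per kb with vehicle. It had 575, 433 and 294 CPM with vehicle and 385, 443 and 296 CPM with esculetin. The vehicle libraries were spread more widely than the esculetin libraries, and the groups overlapped (log2 fold change -0.21, SE 0.22, adjusted p = 0.753, edgeR). Insig1 was at 0.044 on the log2 scale without vehicle replicate 1 and at -0.43 without vehicle replicate 3, with an unadjusted p-value under 0.05 in the latter fit. Srebf2 was at 0.035 without esculetin replicate 3. Insig2, the paralog that is less tied to SREBP2, had 101, 131 and 105 CPM with vehicle and 84.8, 141 and 121 CPM with esculetin (log2 fold change 0.045, adjusted p = 0.948). Over all alternatives Insig2 lay between -0.12 and 0.23 on the log2 scale, with the sign turned without vehicle replicate 1, vehicle replicate 3 or esculetin replicate 2, and Scap was at -0.026 without vehicle replicate 2. The log2 ratio of Insig1 to Insig2 per kilobase was 2.53, 1.76 and 1.51 with vehicle and 2.21, 1.68 and 1.31 with esculetin. These overlapped (difference -0.20, p = 0.6, two-sided exact permutation test). The difference was 0.098 without vehicle replicate 1, 0.011 without esculetin replicate 3, -0.41 without vehicle replicate 3 and -0.44 without esculetin replicate 1, so its sign rested on single libraries.

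Of the 3 genes of sterol transport and LDL uptake, Mylip alone had an unadjusted p-value under 0.05. Mylip encodes IDOL, a ubiquitin ligase that marks lipoprotein receptors for degradation and is induced by the oxysterol receptor LXR, not by SREBP2. It lies on chromosome 13 from 45543215 to 45565501. It had 12.8, 13 and 16.1 CPM with vehicle and 17.1, 16.4 and 17.8 CPM with esculetin, so the groups did not overlap and vehicle replicate 3 was again the vehicle library nearest to esculetin. The log2 fold change was 0.30 (SE 0.12, adjusted p = 0.362, edgeR). Mylip kept an unadjusted p-value under 0.05 in 2 of the 6 fits with 1 library left out, those without vehicle replicate 3 and without esculetin replicate 2, and its log2 fold change lay between 0.24 and 0.41. Stard4, a carrier that moves cholesterol between membranes, had 228, 231 and 181 CPM with vehicle and 165, 165 and 214 CPM with esculetin (log2 fold change -0.23, adjusted p = 0.513, edgeR). Here esculetin replicate 3 was the highest of its group, and without it the log2 fold change was -0.37, with an unadjusted p-value under 0.05. Tmem97, the sigma-2 receptor, which is known to bind the cholesterol carrier NPC1, had 71 to 84.2 CPM with vehicle and 72.5 to 89.6 with esculetin (log2 fold change 0.031, adjusted p = 0.94). Its log2 fold change was -0.043 without vehicle replicate 2, -0.044 without esculetin replicate 1 and 0.11 without esculetin replicate 3. Across the 27 genes, the groups did not overlap in 7 lower genes, against 8.24% of all genes tested, and in 1 higher gene, against 9.20%.

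The enzymes also varied together between libraries of the same group. In the vehicle group, replicate 1 was the highest library for 15 of the 27 genes and replicate 3 the lowest for 21. Over all genes tested, these libraries were the highest for 33.4% and the lowest for 34.6%. In the esculetin group, replicate 1 was the highest for 14 of the 27 and replicate 3 the lowest for 19, against 34.5% and 34.6% of all genes. With total counts, vehicle replicate 1 was the highest for 17 of the 27 genes and 37% of all genes, and vehicle replicate 3 the lowest for 24 of the 27 and 43.5% of all genes. The mean of the 27 genes, as log2(CPM + 1) around their own means, was 0.29, 0.22 and -0.076 in the vehicle libraries and -0.053, -0.095 and -0.28 in the esculetin libraries. Vehicle replicate 3 thus lay between esculetin replicates 1 and 2, and the vehicle libraries spanned more than the distance between the means of the groups. For the 8 mevalonate genes the means were 0.40, 0.35 and -0.11 with vehicle and -0.045, -0.20 and -0.39 with esculetin. These genes share the same libraries, so the count of genes that moved is not a count of independent observations.

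**Figure D4:**
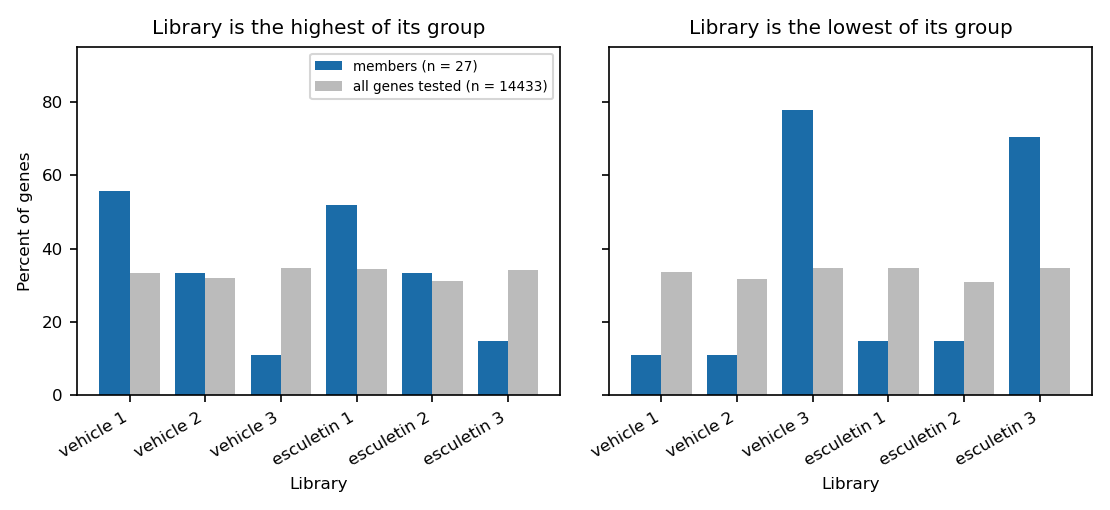
Percent of the 27 genes (blue) and of all 14433 genes tested (grey) for which a library was the highest or the lowest of its own group of 3. Replicate 3 was the lowest of its group for 77.8% of the 27 genes with vehicle and 70.4% with esculetin, where all genes gave 34.6% in both.

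Levels of other gene lists in the same libraries are given as values. Replicate 3 was also the lowest library of both groups in the list of SREBP processing and turnover (-0.024 with vehicle and -0.027 with esculetin) and in the isoprenoid branch (-0.013 and -0.026). Other lists differed. Esculetin replicate 3 was the highest of its group for lipoprotein receptors (0.092), for LXR, sterol export and storage (0.0077) and for the clock (0.0057). It was not the lowest for the accessory proteins (0.085). The 10 genes of SREBP1 and fatty acid synthesis had means of 0.46, -0.0013 and -0.28 in the vehicle libraries and 0.021, 0.14 and -0.34 in the esculetin libraries. In both groups replicate 3 was the lowest. Between the groups, 0 of the 10 had an unadjusted p-value under 0.05, where 11.9% of all genes did, and their median log2 fold change was -0.18. Of the 13 clock genes, 12 were tested and 2 were lower with an unadjusted p-value under 0.05, where 5.32% of all genes were. They were Clock (log2 fold change -0.25, adjusted p = 0.37, edgeR) and Per3 (-0.29, adjusted p = 0.355). Each kept it in 2 of the 6 fits with 1 library left out, and Per3 lost it with the replicate block. The clock genes had means of 0.047, 0.13 and -0.12 in the vehicle libraries and -0.019, -0.043 and 0.0057 in the esculetin libraries. The 6 Kupffer cell markers had a mean of 0.30 in vehicle replicate 3 and between -0.094 and -0.035 in the other libraries, with 0 of 6 at an unadjusted p-value under 0.05. All 6 were lower with esculetin, where 51.5% of all genes were. In 2 of them the groups did not overlap, where 8.24% of all genes were lower without overlap. Vehicle replicate 3 was also the highest vehicle library for the mean of the markers of sinusoidal endothelium (0.15), stellate cells (0.12) and cholangiocytes (0.11). These means rested on part of each list, since other genes of each were highest in vehicle replicate 1. The same library was the lowest vehicle library for the lymphocyte markers (-0.16) and for the 1 adipocyte marker tested (-0.65). Among the Kupffer cell markers, Clec4f had 107, 105 and 146 CPM with vehicle and 102, 123 and 109 CPM with esculetin. Of 31 cell type markers tested, 5 had an unadjusted p-value under 0.05, where 11.9% of all genes did in either direction. The hepatocyte gene Apoa2, the stellate cell gene Des, the lymphocyte gene Cd79a and the adipocyte gene Cfd were higher with esculetin (log2 fold changes 0.37, 0.69, 1.12 and 1.72), and the cholangiocyte gene Spp1 was lower (-0.75). Cd79a and Cfd were at 1.31 CPM or less in every library. The part of feeding, time of day and these cells in the lower sterol enzymes was not tested.

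**Figure D5:**
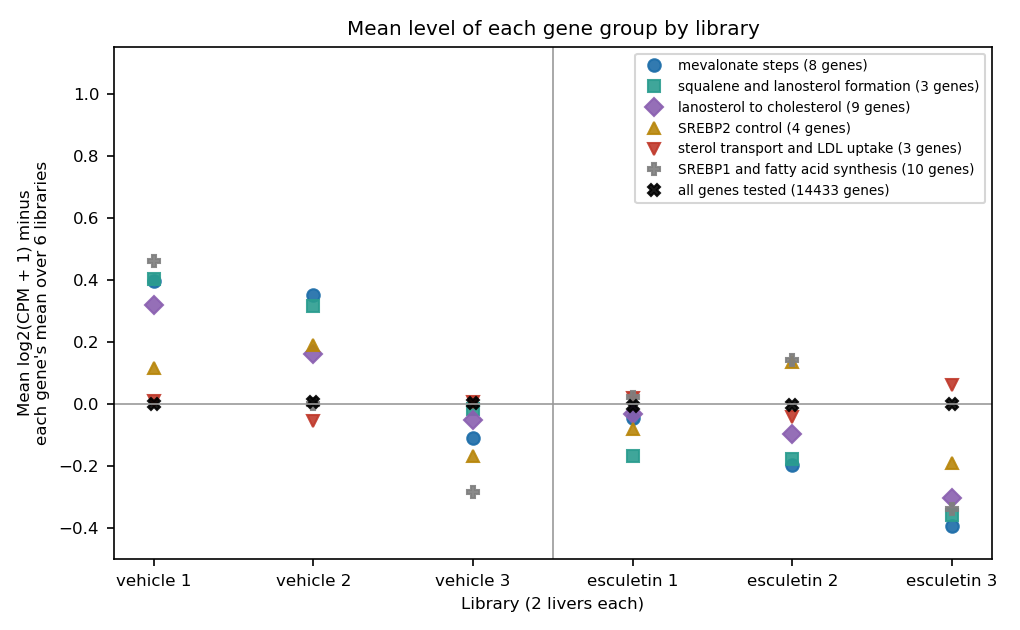
Mean of log2(CPM + 1), each gene taken around its own mean over 6 libraries, for the 5 parts of the list, for 10 genes of SREBP1 and fatty acid synthesis and for all genes tested. The mevalonate genes go from 0.40 in vehicle replicate 1 to -0.39 in esculetin replicate 3, while the mean of all genes stays within 0.0076 of 0.

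Among the other genes around the pathway, 3 accessory proteins of the sterol steps differed in the opposite direction from the enzymes. Of 8 accessory genes, 3 were higher with an unadjusted p-value under 0.05 and 0 were lower, where 6.53% and 5.32% of all genes were. Por, the reductase that supplies electrons to microsomal P450 enzymes and to squalene epoxidase, had 232, 184 and 195 CPM with vehicle and 292, 273 and 304 CPM with esculetin (log2 fold change 0.51, SE 0.098, adjusted p = 0.132, edgeR). Pgrmc1, a heme protein that binds P450 enzymes, had 1150, 983 and 995 CPM with vehicle and 1370, 1380 and 1350 CPM with esculetin (log2 fold change 0.39, adjusted p = 0.152). Cyb5a, cytochrome b5, had a log2 fold change of 0.32 (adjusted p = 0.172). In these 3 genes the groups did not overlap, where 9.20% of all genes were higher without overlap. Their unadjusted p-value stayed under 0.05 whichever library was left out. They also serve the drug-metabolizing P450 enzymes.

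In the machinery that cleaves SREBP2 and degrades sterol enzymes, 1 of 12 genes had an unadjusted p-value under 0.05, where 11.9% of all genes did in either direction, with a median log2 fold change of -0.017. That gene was Ube2g2, a ubiquitin-conjugating enzyme of the endoplasmic reticulum (log2 fold change 0.35, adjusted p = 0.385, edgeR). Its unadjusted p-value was over 0.05 with the replicate block and under 0.05 in 2 of the 6 fits with 1 library left out. The isoprenoid branch leads to dolichol, ubiquinone and protein prenylation. Of its 12 genes, 0 had an unadjusted p-value under 0.05, where 11.9% of all genes did. Among 17 genes of LXR, sterol export and storage, 2 were higher and 2 lower at that p-value, where 6.53% and 5.32% of all genes were. Abcg8, a subunit of the transporter that exports sterols to bile, had 74.7, 110 and 101 CPM with vehicle and 124, 110 and 128 CPM with esculetin (log2 fold change 0.34, adjusted p = 0.358, edgeR). Soat1, an enzyme that esterifies cholesterol, had 6.74, 6.87 and 6.93 CPM with vehicle and 4.85, 5.88 and 5.05 CPM with esculetin (log2 fold change -0.38, adjusted p = 0.345). The cholesterol-binding genes Stard5 and Gramd1c had log2 fold changes of 0.20 (adjusted p = 0.317) and -0.22 (adjusted p = 0.418). With 1 library left out, Stard5 kept an unadjusted p-value under 0.05 in 4 of the 6 fits, Abcg8 in 3, Soat1 in 2 and Gramd1c in 1. Over all alternatives the log2 fold change of Abcg8 lay between 0.19 and 0.46. Of 8 lipoprotein receptors and adaptors, 7 were tested and 0 had an unadjusted p-value under 0.05, where 11.9% of all genes did. No gene of these lists had an adjusted p-value under 0.05 in the main edgeR fit. With DESeq2 the adjusted p-values were 0.00102 for Por, 0.00564 for Pgrmc1 and 0.0177 for Cyb5a, where 193 of 14433 genes were under 0.05. In edgeR without the filter on low counts they were 5.23e-05, 0.00204 and 0.0214, and 0.0392 for Abcg8, where 477 of 24638 genes were under 0.05.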

How the data were processed

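RNA was isolated from livers with Trizol, libraries were prepared with the NEBNext Ultra RNA kit and paired-end reads were sequenced. The authors mapped them to GRCm39 with HISAT2 2.2.1 and deposited whole-number read counts per gene from featureCounts, without normalization. The annotation release, the strand setting and the handling of reads with several matches are not given in the sources used here. Counts in overlaps with other genes and in close copies are therefore uncertain. Columns were assigned by treatment and replicate number. Nothing says whether the animals of a group were housed or processed separately, so p-values measure the spread between these libraries.

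Symbols, positions and the length of the main transcript came from GENCODE vM39, which held 54749 of the 55357 gene identifiers. Genes were kept with filterByExpr, scaled with TMM and tested in R 4.3.3 with edgeR 4.0.16 (quasi-likelihood), with Benjamini-Hochberg adjustment over 14433 genes. Standard errors were derived from the F statistic of each gene. Library deviations used log2(CPM + 1). Copies of transcripts were sought with minimap2 2.31 (at least 25% covered, 90% identity). The test was also run on simulated data in which each gene varied independently. That setting lacks the shared movement of genes between libraries seen here, so no conclusion is drawn from it. Alternatives were DESeq2 1.42.0, limma-voom (limma 3.58.1; the study's methods name limma), other scalings and filters, a fold change of 1.2, each library left out and a replicate block. All 27 genes are accounted for. Of the other lists and the cell type markers, genes with an unadjusted p-value under 0.05 are named. Clec4f, Alb, Adipoq, Plin1, Cela1, Cpa1, Prss2, Idi1-ps1, Acat3, Ctsb and Vps51 were picked for display. The genes and lists were chosen with earlier results of these data known.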

Additional observations from a re-analysis of the deposited data

How the results depend on the processing

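With all 6 libraries, the numbers of genes that were lower at an unadjusted p-value under 0.05 (15) and by both thresholds (5) were 15 to 17 and 5 under each other test, scaling and filter. Of all genes tested, 4.12% to 6.2% and 1.57% to 1.96% were in those fits. The number with an adjusted p-value under 0.05 was 0, but 3 with DESeq2 and 11 without the filter on low counts. The cause was not tested. With a fold-change threshold of 1.2, which is looser by construction, 15 genes were lower and 1 was higher, where 4.3% and 4.5% of all genes were. When 1 library was left out, between 5 and 19 genes were lower and between 0 and 1 higher at an unadjusted p-value under 0.05. Of all genes, 3.61% to 6.01% and 4.84% to 6.37% were. Between 1 and 7 were lower by both thresholds, where 1.49% to 2.49% of all genes were. Between 0 and 1 had an adjusted p-value under 0.05, Hmgcs1 without vehicle replicate 3, where 15 of 14866 genes did. The median log2 fold change of the 27 genes lay between -0.49 and -0.22 in these fits. With total counts, vehicle replicate 3 was the highest of its group for 1 gene in place of 3. Of 351 values of single genes under the alternatives, 33 lost and 7 gained an unadjusted p-value under 0.05, and 22 of the 27 genes kept 1 sign throughout.

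Libraries that share a replicate number came from different animals, and over all genes tested their deviations correlated at -0.11, -0.034 and 0.021. For the 27 genes, replicate 3 was the lowest library in 21 with vehicle and in 19 with esculetin. Replicate 1 was the highest in 15 and 14. Whether a replicate number marks a shared order or batch for these genes was not tested. With the replicate block, 15 genes were lower and 1 higher at an unadjusted p-value under 0.05, and 5 were lower by both thresholds, where 4.7%, 5.72% and 1.54% of all genes were. The number significant after adjustment was 0, where 15 of all 14433 genes were, and the median log2 fold change was -0.35. Some unadjusted p-values (edgeR) fell with the block, from 0.00361 to 9.19e-05 for Idi1 and from 0.0291 to 0.00162 for Mvd. Others rose, from 0.0157 to 0.0289 for Fdft1 and from 0.0218 to 0.0386 for Lbr. Within replicate numbers, the difference in the log2 ratio was -0.20 for Insig1 to Insig2 and 0.29 for Tm7sf2 to Lbr.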
